A study of Mus musculus with 12 samples.

Results

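Laminins are the main adhesive proteins of basement membranes, and the genes described here are the 6 laminin chains (Lama4, Lama5, Lamb1, Lamb2, Lamb3 and Lamc1) and 3 integrin subunits (Itga3, Itga6 and Itgb4) of laminin receptors. They were chosen by gene symbol, and all 9 were found among the 14851 genes with an RPKM (reads scaled by transcript length and library depth) in each library. The cells were 562 cells, an immortalized vascular tumor line in culture from a C57BL/6 Tsc1 f/f;Scl-Cre mouse given tamoxifen, so that the control cells lacked Tsc1 as well as the knockouts did, and the tissue label was lymphatic endothelial. There were 12 RNA-seq libraries in 4 groups of 3: control cells with a guide against EGFP (genotype label wildtype), and cells labelled Fip200 KO, Atg5 KO or Atg7 KO, with LentiCRISPR guides against that autophagy gene, selected with puromycin. All came from 1 cell line. The methods list 1 guide each for Atg5 and Atg7 and more than 1 for Fip200, without tying libraries to guides. An effect of a guide thus cannot be told apart from one of its gene. The study calls the mRNA samples independent replicates and its experiments biologically replicated. The labels do not tie libraries to cultures, so p-values measure the spread between these libraries.

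A laminin is a trimer of 1 alpha, 1 beta and 1 gamma chain that is secreted and polymerizes on the cell surface. In blood and lymphatic vessels the alpha4 chain (Lama4) and the alpha5 chain (Lama5) are the usual alpha chains, paired with beta1 or beta2 and gamma1, whereas the beta3 chain (Lamb3) joins the alpha3 chain in a laminin best known from epithelium. Cells hold laminin mainly through integrins that pair the alpha3 or alpha6 subunit with beta1, or alpha6 with beta4, the integrin of hemidesmosomes.

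The groups follow the labels, and the RNA of the targeted genes checks them only in part. The study itself checked its Fip200, Atg5 and Atg7 knockouts at the protein level, by western blot. Rb1cc1, which encodes Fip200, had mean RPKM of 4.69 in Fip200 KO and 7.48 in control (limma adjusted p = 0.404). Atg5 stood at 12.2 in Atg5 KO and 11.9 in control (adjusted p = 0.994), whereas Atg7 stood at 5.46 in Atg7 KO and 21.1 in control (adjusted p = 0.0216). Atg7 also stood at 10.6 in Atg5 KO. Reads on the listed genes ran from 17266874 to 23629460 per library. Of the lymphatic endothelial markers, Lyve1, Flt4 and Pdpn had RPKM of 31.7 or more in every library, but Prox1, the defining factor of lymphatic endothelium, lay between 0.0366 and 5.79. The mural and fibroblast markers summed to 1.15 to 70.7 RPKM in control, with Dcn at 56.9 in control replicate 2, 15.2 in control replicate 3 and 0.125 in control replicate 1, and to 1.79 to 16.2 in the knockouts. Other genes of that list went the other way. Acta2, the smooth muscle actin gene, stood at a mean of 1.39 RPKM in control and at 6.03, 4.13 and 7.54 in the knockouts of Fip200, Atg5 and Atg7, and the collagen I gene Col1a2 at 0.0154 in control and at 0.281, 0.523 and 1.13. Calls were therefore also made with control replicates 2 and 3 left out, where the lone control library is assumed to vary like the other groups. Of the calls on the 9 genes and on the receptor, partner and integrin lists, those left were Lama5, Lamb3, Col4a5 and Col4a6 for Atg5 KO, and Lamb1 and Cd81 were called there in addition. With the lone control library almost no gene of any kind was called in Fip200 KO or Atg7 KO. A call lost there thus says nothing particular of that gene. The markers were not refitted in this setting. The library names carry 3 prefixes whose meaning is not stated. Control libraries carry 2 of them, all Fip200 KO libraries share theirs with control replicate 1, 2 of the Atg5 KO libraries share theirs with control replicates 2 and 3, and no Atg7 KO library shares a prefix with any control library, so a fit with the prefix as a term ties Atg7 KO to control only through the Atg5 KO libraries.

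In control cells the order of the member levels by mean RPKM was Lamc1 (122 ± 2.92, SD, n = 3), Itga6 (101 ± 16.7), Itga3 (66.3 ± 12.2), Lamb1 (47.2 ± 13.8), Lama5 (43.4 ± 7.82), Lamb2 (34.9 ± 1.35), Lama4 (18.9 ± 9.45), Itgb4 (1.5 ± 0.690) and Lamb3 (0.803 ± 0.166). The libraries of Itga3 and Lamb1, of Lamb1 and Lama5, and of Itgb4 and Lamb3 overlapped, while the other neighbours in this order did not. RPKM is per length, so these levels can be set side by side. The plot of the 9 genes by library shows 7 genes within 1 band and Lamb3 and Itgb4 far below it.

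**Figure D1:**
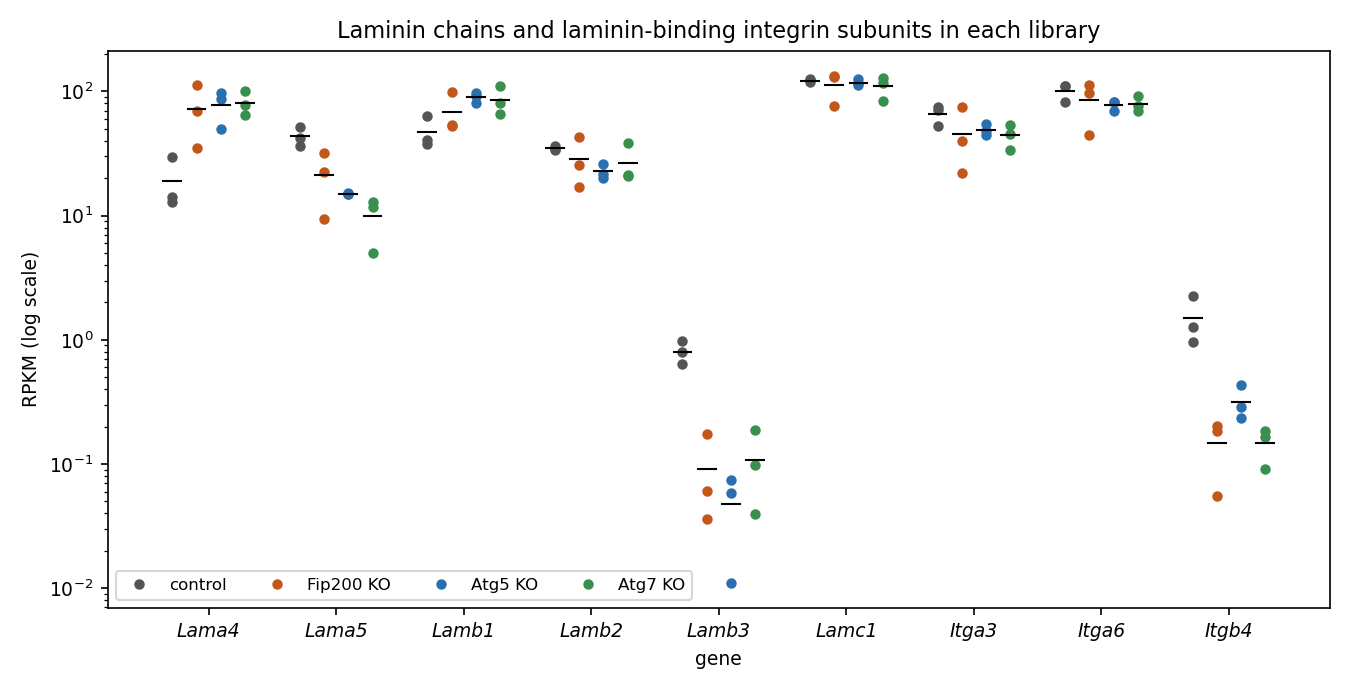
RPKM of the 9 genes (x axis) on a log scale (y axis), 1 point per library and 3 per group, with a black bar at the group mean. Lama4 lies higher and Lama5 lower in all 9 knockout libraries than in any control library, and Lamb3 and Itgb4 lie below 0.5 RPKM in all knockout libraries.

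Against control, a gene was called when its limma adjusted p was at most 0.1 and its difference of mean log2(RPKM + 0.5), knockout minus control, was at least 1 in size. By this rule the Atg5 and Atg7 knockouts had the same 4 calls, in which Lama4 rose and Lama5, Lamb3 and Itgb4 fell. In Fip200 KO cells Itgb4 fell, and the other 8 genes were not called. In Fip200 KO, 1.64% of the 11803 genes tested were called lower and 0.347% higher. In Atg5 KO these shares were 6.94% and 4.31% of 11833 genes, and in Atg7 KO 6.81% and 3.29% of 11784. All 3 comparisons share the control libraries, so their values stand side by side and are not independent. The median difference over the 9 genes was -0.39, -0.42 and -0.43 in the knockouts of Fip200, Atg5 and Atg7, beside 0.02, 0.06 and -0.01 over all genes tested. The filter needed 0.5 RPKM in 3 of 6 libraries. Lamb3 and Itgb4 passed it only through the 3 control libraries, so they had to differ, and neither the counts and medians over the 9 genes nor the p-values of this pair carry weight as support. With no filter the pair was called in each knockout. The limma adjusted p was then 0.0544, 0.0054 and 0.0177 for Lamb3 and 0.0842, 0.0219 and 0.0245 for Itgb4. All 9 genes were chosen with earlier results of these data known, so these p-values are not independent support either.

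**Figure D2:**
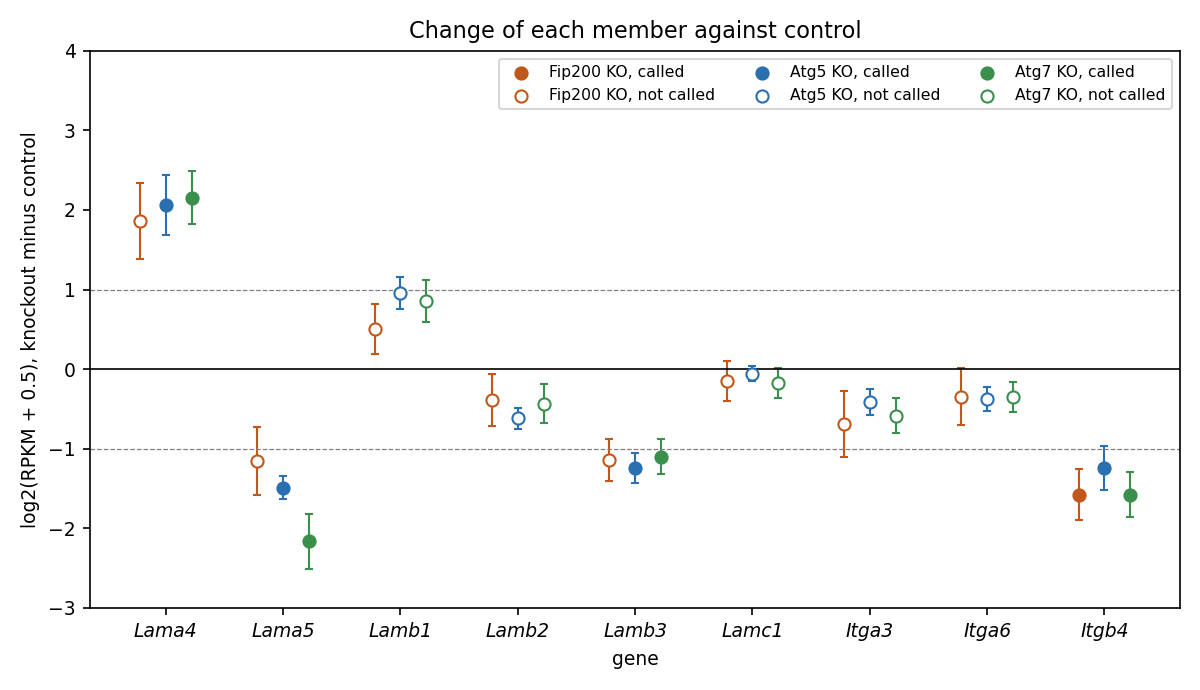
Difference of mean log2(RPKM + 0.5), knockout minus control (y axis), for the 9 genes (x axis) in the 3 knockouts, with bars of 1 SE. Filled points were called, open points were not, and dashed lines mark the fold threshold. Lama4 stands at 1.86 to 2.15 and Lama5 at -1.16 to -2.16.

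Of the alpha chains, Lama4 (gene ID 16775) was read at 29.8, 12.9 and 14.0 RPKM in control replicates 1, 2 and 3. It stood at 69.5, 112 and 35.2 in the Fip200 KO libraries, at 86.3, 97.9 and 49.4 with Atg5 knocked out and at 77.4, 100 and 65.0 with Atg7 knocked out. Every knockout library was above every control library, and control replicate 1 was the highest of its group. Groups separated upwards in this way for 11.7%, 28.4% and 19.2% of all genes tested in the knockouts of Fip200, Atg5 and Atg7. The mean level was 4.12 times that of control in Atg5 KO (log2 difference 2.06 ± 0.376, SE; limma adjusted p = 0.0112) and 4.28 times in Atg7 KO (2.15 ± 0.333; adjusted p = 0.0145). In Fip200 KO it was 3.82 times (1.86 ± 0.480), with adjusted p = 0.145 and no call. Some markers of endothelial and mural cells moved with it. Lyve1 was called higher in Atg5 KO (1.25, limma adjusted p = 0.0480) and Atg7 KO (1.11, 0.0947), and Cdh5 (1.28, 0.0376) and Kdr (1.35, 0.0878) in Atg5 KO, while the other markers among 7 endothelial and 4 lymphatic ones were not called in any knockout. The summed RPKM of the endothelial markers was 1020 to 2460 in control and 1640 to 2650 in the knockouts, which overlapped. For the lymphatic markers it was 262 to 358 in control, 219 to 821 with Fip200 knocked out, 388 to 497 with Atg5 knocked out and 379 to 488 with Atg7 knocked out, the last 2 groups apart from control. Of the mural and fibroblast markers, Acta2 was called higher in Atg5 KO (1.5, limma adjusted p = 0.0499) and not in Fip200 KO or Atg7 KO (1.23 and 1.85), where it overlapped with control. Col1a2 was called higher in Atg7 KO (1.64, adjusted p = 0.0134), where it passed the filter only through the knockout libraries, and the part of these markers in the Lama4 values was not tested. Fip200 KO replicate 3 was the lowest knockout library, and without it the Fip200 KO difference was called (2.30, limma adjusted p = 0.0506). With 1 library left out in turn that difference ranged from 1.47 to 2.30, and no other such fit gave a call. With control replicates 2 and 3 left out the differences were 1.11, 1.31 and 1.40 in the knockouts of Fip200, Atg5 and Atg7 and no call was left.

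Lama5 (gene ID 16776), the chain of the most widely spread adult laminins, moved the other way. It was read at 52.0, 41.8 and 36.6 RPKM in control. The Fip200 KO libraries gave 22.5, 9.32 and 32.2, the Atg5 KO libraries 15.3, 14.8 and 14.9 and the Atg7 KO libraries 11.8, 12.9 and 5.04. All knockout libraries were below all control libraries, a downward separation that 12.4%, 22% and 20.4% of all genes tested showed in the knockouts of Fip200, Atg5 and Atg7. The Atg5 KO libraries lay closest together. The control mean was 2.90 times that of Atg5 KO (-1.49 ± 0.144, limma adjusted p = 0.00372) and 4.37 times that of Atg7 KO (-2.16 ± 0.347, adjusted p = 0.0161). In Fip200 KO the ratio was 2.04 (-1.16 ± 0.429, adjusted p = 0.258). Without Fip200 KO replicate 3, whose 32.2 RPKM came nearest to control, the difference was -1.53 with limma adjusted p = 0.0925. With 1 library left out in turn the Fip200 KO difference ranged from -1.53 to -0.67, and no other such fit gave a call. With control replicates 2 and 3 left out, the Atg5 KO call held (-1.76, adjusted p = 0.0363) and the Atg7 KO call did not (-2.43, adjusted p = 0.287).

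The ratio of Lama4 to Lama5 within a library shows both at once. This ratio was computed after the levels of both genes had been seen, so it is a description with no test. It was 0.573, 0.309 and 0.382 in control replicates 1, 2 and 3, so Lama5 was the higher of the pair in every control library. The Fip200 KO libraries gave 3.09, 12 and 1.09, those of Atg5 KO 5.64, 6.62 and 3.33 and those of Atg7 KO 6.54, 7.75 and 12.9, so Lama4 was the higher in every knockout library, though only just in Fip200 KO replicate 3. Of the summed RPKM of the 5 alpha chain genes, Lama4 made up 29.2% ± 6.53 (SD, n = 3) in control and 72.4% ± 19.3, 82.0% ± 6.06 and 88.6% ± 2.47 in the knockouts of Fip200, Atg5 and Atg7. The sum itself was 50.7 to 82.0 RPKM in control and 65.8 to 124 in the knockouts, and these ranges overlapped.

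**Figure D3:**
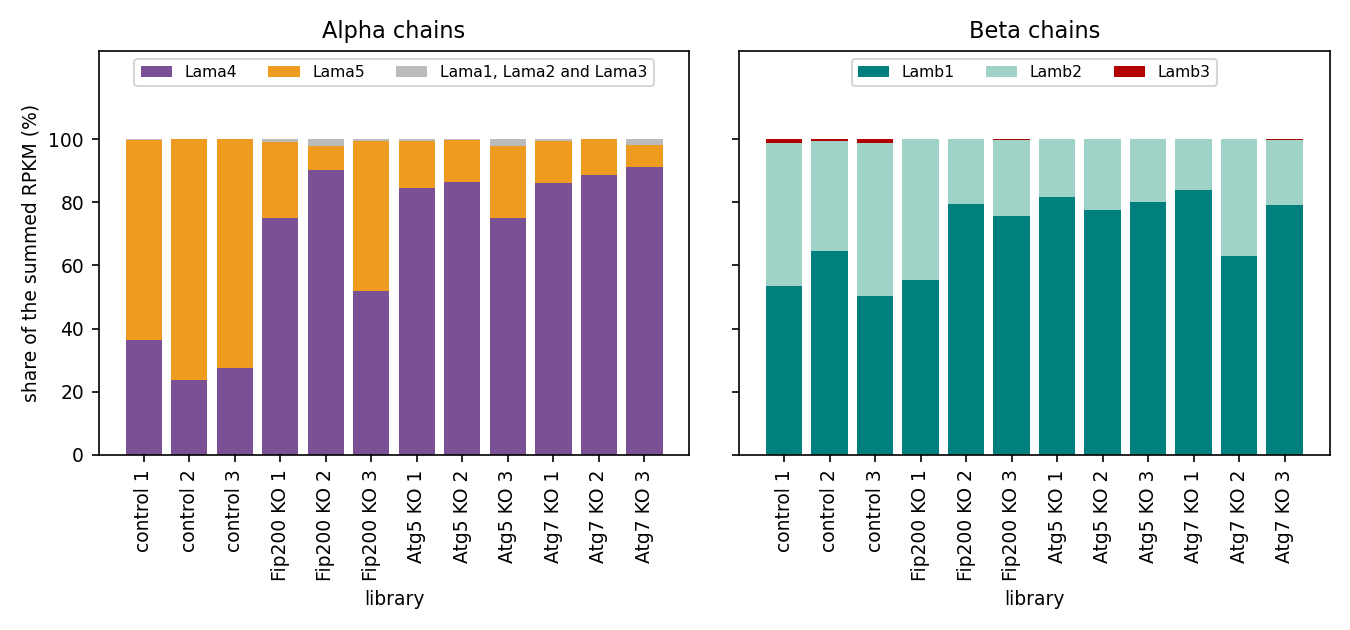
Share of the summed RPKM (y axis, %) taken by each alpha chain gene (left) and each beta chain gene (right) in each of the 12 libraries (x axis). Lama5 holds 63.4% to 76.3% of the alpha sum in control and at most 47.6% in any knockout library, and Lamb3 is a thin band of 0.657% to 1.29% of the beta sum in control.

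The other alpha chains were scarce. Lama1 did not exceed 0.446 RPKM and Lama3, the partner of Lamb3, did not exceed 0.0650 RPKM in any library. Lama2, the alpha chain of muscle laminin, stood at 0 to 0.0109 in control and reached 2.33 in Fip200 KO replicate 2, 1.28 in Atg5 KO replicate 3 and 1.14 in Atg7 KO replicate 3, with the other knockout libraries between 0.0113 and 0.447. None of these 3 genes passed the filter on low values in a comparison with control.

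Of the beta chains, Lamb1 (gene ID 16777) was read at 40.9, 63.1 and 37.8 RPKM in control. The Fip200 KO libraries gave 53.3, 99.1 and 53.0, those of Atg5 KO 96.9, 91.3 and 81.0 and those of Atg7 KO 111, 65.5 and 81.0. The Atg5 KO and Atg7 KO libraries were all above control, whereas the Fip200 KO libraries overlapped with it. The difference was 0.95 ± 0.202 for Atg5 KO (limma adjusted p = 0.0169) and 0.86 ± 0.264 for Atg7 KO (adjusted p = 0.0711), both under the fold threshold, and 0.50 ± 0.320 for Fip200 KO (adjusted p = 0.459). Control replicate 2 was the highest control library, and without it Lamb1 passed the threshold for Atg5 KO at 1.18 (limma adjusted p = 0.0111) and for Atg7 KO at 1.08 (0.0702). It also passed without Atg5 KO replicate 3 (1.02), without Atg7 KO replicate 2 (1.03) and, for Atg5 KO, with control replicates 2 and 3 left out (1.12, adjusted p = 0.0412).

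Lamb2 (gene ID 16779), the beta chain that can take the place of Lamb1, was not called in any knockout. It stood at 33.7 to 36.4 RPKM in control, while the 3 libraries of Fip200 KO ran from 16.9 to 43.1, those of Atg5 KO from 20.1 to 26.2 and those of Atg7 KO from 20.9 to 38.2. Only the Atg5 KO libraries lay apart from control, with a difference of -0.62 ± 0.127 that passed the adjusted p (limma, 0.0152) and not the fold threshold. Lamb1 made up 56.2% ± 7.55 (SD, n = 3) of the summed RPKM of the 3 beta chains in control and 70.2% ± 13.1, 79.8% ± 2.04 and 75.4% ± 10.9 in the knockouts of Fip200, Atg5 and Atg7. Its share overlapped with control in Fip200 KO and in Atg7 KO.

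Lamb3 (gene ID 16780) was a trace transcript in these cells. It had 63, 63 and 80 reads in control replicates 1, 2 and 3 (0.798, 0.640 and 0.972 RPKM). Reads numbered 5, 3 and 16 in the Fip200 KO libraries, 6, 5 and 1 in those of Atg5 KO and 7, 3 and 16 in those of Atg7 KO. The groups did not overlap in any of the 3 comparisons, and no knockout library exceeded 0.188 RPKM. The control mean RPKM was 8.88, 16.7 and 7.41 times that of the knockouts of Fip200, Atg5 and Atg7. On the log2(RPKM + 0.5) scale, which understates changes at such levels, the differences were -1.14 ± 0.260 (limma adjusted p = 0.114, not called), -1.24 ± 0.193 (0.00754) and -1.10 ± 0.226 (0.0263). Limma voom, whose small offset is added to reads rather than to RPKM, gave -3.31, -4.18 and -3.01. A pseudocount of 1 took the Atg5 KO and Atg7 KO differences under the fold threshold (-0.78 and -0.70), and the Atg7 KO call was also lost without control replicate 3 (limma adjusted p = 0.105). Without Fip200 KO replicate 3 the Fip200 KO difference of -1.24 was called (adjusted p = 0.0746). With control replicates 2 and 3 left out the Atg5 KO call held (-1.25, adjusted p = 0.0582) and the Atg7 KO call did not (-1.10, 0.319). Lamb3 made up 0.999% ± 0.321 (SD, n = 3) of the beta sum in control and 0.114% ± 0.119, 0.0412% ± 0.0270 and 0.0987% ± 0.0761 in the knockouts of Fip200, Atg5 and Atg7. The share needs no filter on low values. Its two-sided exact permutation test gave p = 0.1 in each comparison, the smallest value that 3 against 3 allows, so it could not pass 0.05. Lamb3 and Itgb4 were also on a gene list that the study drew up from these same libraries, as lower in all 3 knockouts. That list is thus not independent evidence of their direction. The study also reports lower RT-qPCR levels for a select group of genes in the knockouts. Its methods list primers for Itgb4 and not for Lamb3, and its RT-qPCR values were not used here.

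Lamc1 (gene ID 226519) encodes the gamma1 chain shared by nearly all vascular laminins. It was the most abundant laminin chain transcript in all 4 groups by mean RPKM. Its 3 control libraries stood at 123, 125 and 119 RPKM and its 9 knockout libraries at 76.9 to 133. The groups overlapped in each comparison. Its differences were -0.15 ± 0.251, -0.06 ± 0.093 and -0.18 ± 0.185 in the knockouts of Fip200, Atg5 and Atg7, with limma adjusted p of 0.793, 0.672 and 0.531. Lamc3 did not exceed 0.0838 RPKM in any library.

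The RefSeq table of start sites (GRCm38.p6) held a promoter for 5 of the 9 genes. Those of Lama5, Lamb1 and Lamb3 are shown because the first and the last of them were called lower while Lamb1 was not, within the same families of chains. Each runs 5′ to 3′ on the gene's own strand and ends where the start site or the first annotated exon begins, and capitals mark the GC box GGGCGG, the letters bound by Sp1, on either strand. The Lama5 stretch is chr2:180225860-180226109 on the minus strand, that of Lamb1 chr12:31265043-31265233 on the plus strand and that of Lamb3 chr1:193301744-193301992 on the plus strand.
Lama5: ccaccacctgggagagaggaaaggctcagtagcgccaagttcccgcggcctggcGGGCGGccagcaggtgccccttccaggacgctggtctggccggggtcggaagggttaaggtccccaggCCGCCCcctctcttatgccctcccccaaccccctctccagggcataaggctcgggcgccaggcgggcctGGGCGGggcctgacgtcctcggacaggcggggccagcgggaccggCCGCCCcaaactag
Lamb1: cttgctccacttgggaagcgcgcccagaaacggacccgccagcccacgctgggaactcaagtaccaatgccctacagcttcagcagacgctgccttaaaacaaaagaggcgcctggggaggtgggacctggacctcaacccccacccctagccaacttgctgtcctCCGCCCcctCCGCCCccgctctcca
Lamb3: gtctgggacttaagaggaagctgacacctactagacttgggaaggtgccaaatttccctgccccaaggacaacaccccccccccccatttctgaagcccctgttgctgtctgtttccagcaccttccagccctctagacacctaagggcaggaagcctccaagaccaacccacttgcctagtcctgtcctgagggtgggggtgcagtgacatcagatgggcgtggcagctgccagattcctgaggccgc
Lama5 held 4 GC boxes, Lamb1 held 2 and Lamb3 held 0, and 32.7% of all the promoters listed held at least 1 in the 250 bases before the start. The G and C content was 72.4%, 63.9% and 58.6%. The E-box letters CACGTG, read on both strands, were in none of the 3 stretches, and 6.02% of all the promoters held them. A TATA box, spelled TATAAA, was likewise in none of the 3, and 12.4% of all the promoters held one.

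Of the integrin subunits, Itga3 and Itga6 were abundant and not called in any knockout. Itga3 (gene ID 16400), the alpha3 subunit, stood at 71.1, 52.4 and 75.4 RPKM in control and at 22, 40.2 and 74.3 in Fip200 KO, a wide range with Fip200 KO replicate 3 among the control values. It stood at 44.6 to 54.7 in Atg5 KO and 33.6 to 53.9 in Atg7 KO, both of which overlapped with control. The differences were -0.69 ± 0.420, -0.42 ± 0.163 and -0.58 ± 0.225, with limma adjusted p of 0.444, 0.0958 and 0.120. Itga6 (gene ID 16403), the alpha6 subunit, stood at 111, 82.1 and 111 RPKM in control and the Fip200 KO libraries at 96.8, 113 and 44.8. The Atg5 KO libraries gave 82.1, 81.8 and 69.0 and the Atg7 KO libraries 69.7, 92.3 and 75.8, and neither group lay apart from control. Its differences were -0.35 to -0.37 in the 3 knockouts, and the smallest adjusted p was 0.106. Together the pair summed to 168 ± 28.9 RPKM in control (SD, n = 3) and to 130 ± 19.6, 127 ± 3.37 and 124 ± 2.31 in the knockouts of Fip200, Atg5 and Atg7.

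Itgb4 (gene ID 192897), the beta4 subunit that pairs with alpha6, was low in control and lower in every knockout library. It had 115, 191 and 286 reads in control (0.953, 1.27 and 2.27 RPKM). Reads numbered 7, 26 and 26 with Fip200 knocked out, 53, 38 and 32 with Atg5 knocked out and 10, 19 and 24 with Atg7 knocked out. No group overlapped with control, and the Atg5 KO libraries, at 0.233 to 0.431 RPKM, stood above the other knockouts, at 0.0555 to 0.203. The control mean RPKM was 10.1, 4.71 and 10.2 times that of the knockouts of Fip200, Atg5 and Atg7. The limma adjusted p was 0.0908, 0.0189 and 0.0206, with the limit given above for a gene that passed the filter only through control. The Fip200 KO call was lost with a pseudocount of 1 (adjusted p = 0.104) and when any one library other than Fip200 KO replicate 3 was left out (0.105 to 0.390). The Atg5 KO difference dropped under the fold threshold with a pseudocount of 1 (-0.89) and without control replicate 3 (-0.98). With control replicates 2 and 3 left out all 3 calls were lost (-1.17, -0.84 and -1.17), although control replicate 1 alone was still above every knockout library. Voom on reads gave -3.40, -2.18 and -3.27. Beside it Itgb1, the beta1 subunit that pairs with many alpha subunits, stood at 240 to 347 RPKM in all libraries, with differences of 0.13, -0.05 and 0.00. Itgb4 thus made up 0.352% to 0.771% of the sum of the Itgb1 and Itgb4 RPKM in control and 0.0223% to 0.155% in the knockouts.

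Lamb3 and the alpha6beta4 integrin are best known from epithelium, so epithelial markers were read beside them. Epcam, Cdh1, Krt5 and Krt14 are not among the genes analysed here, and Krt8 stood at 0 to 0.0584 RPKM in control, at 0.278 to 0.307 in Fip200 KO, above control, and at 0 to 0.190 in the other knockouts, below the filter throughout. Krt18 was at 10.5, 6.17 and 6.58 in control and at 0.216 to 6.25 in the knockouts, and its part in the Lamb3 and Itgb4 values was not tested. In bulk RNA, fewer cells that carry a transcript and less of it per cell cannot be told apart.

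The knockouts were also compared with each other, in 1 limma fit of all 12 libraries. None of the 9 genes, and none (0%) of the 12233 genes tested, was called in Atg5 KO against Fip200 KO, in Atg7 KO against Fip200 KO (0%) or in Atg7 KO against Atg5 KO (0%), while 927, 916 and 562 genes had an unadjusted p under 0.05, and limma voom on reads called 0 as well. The counts moved to 298 and 404 genes in the comparisons with Fip200 KO without Fip200 KO replicate 3, and none of the 9 was among them. The member differences ran from -0.33 to 0.45, from -1.0 to 0.35 and from -0.67 to 0.19. Lama5 gave the lowest value each time, and in Atg7 KO against Fip200 KO it had a difference of -1.0 ± 0.418 (limma unadjusted p = 0.0347, adjusted p = 0.652). With an SE of 0.208 to 0.433 per gene, the absence of a call does not show that the knockouts act alike.

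Within the shared library-name prefix, 2 Atg5 KO libraries could be set beside 2 control libraries. The differences there were 2.73 for Lama4, -1.35 for Lama5, 0.94 for Lamb1, -1.19 for Lamb3 and -1.37 for Itgb4. The 3 Fip200 KO libraries could be set beside 1 control library, with 1.11, -1.43, 0.67, -1.14 and -1.17 for the same genes. Lamc1 differed by -0.09 and -0.16. With the prefix as a term in a fit of all 12 libraries, 0 members were called in Fip200 KO and 0 in Atg7 KO. In Atg5 KO 3 were called (Lama4, Lamb3 and Itgb4). Of all 12233 genes tested, that fit called 47, 663 and 38 in the knockouts of Fip200, Atg5 and Atg7. With so few called, the absence of member calls in Fip200 KO and Atg7 KO says nothing particular of the members.

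Among the other laminin receptors, Bcam, the Lutheran glycoprotein that binds the alpha5 chain, stood at 35.9, 47.0 and 38.3 RPKM in control. The Fip200 KO libraries gave 17.5, 8.34 and 1.27, those of Atg5 KO 14.7, 19.7 and 7.51 and those of Atg7 KO 13.9, 0.114 and 5.44. All knockout libraries were below all control libraries, with a wide spread in Fip200 KO and Atg7 KO. Bcam fell with Atg5 knocked out (-1.59 ± 0.326, limma adjusted p = 0.0153) and with Atg7 knocked out (-3.44 ± 1.022, adjusted p = 0.0648) and was not called in Fip200 KO (-2.63 ± 0.759, adjusted p = 0.173). Its Atg5 KO and Atg7 KO differences with control replicates 2 and 3 left out were -1.43 and -3.28, neither called, and the Atg5 KO call was also lost with all 12 libraries in one fit (adjusted p = 0.330) and with the prefix term (0.619). Itga7, the alpha subunit of the muscle laminin receptor, was called lower in Atg7 KO (-1.71, adjusted p = 0.0695), but control replicate 1 stood at 0.826 RPKM beside 5.66 and 3.35 in control replicates 2 and 3, and with those 2 left out the difference was -0.46. Itga1, Itga2, Dag1 and Itgb1 were not called, so that of the 6 receptors on this list 0, 1 and 2 were called lower in the knockouts of Fip200, Atg5 and Atg7 and 0 higher, beside 1.64%, 6.94% and 6.81% of all genes tested called lower. With so few genes these counts say nothing particular of the list.

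Of the hemidesmosome and tetraspanin partners, 5 of 6 were tested. The plaque proteins Plec and Dst and the tetraspanin Cd151, a close partner of laminin-binding integrins, were not called. Cd9 fell in Atg5 KO (-1.01, limma adjusted p = 0.00797) and Atg7 KO (-1.10, adjusted p = 0.0700). Cd81 fell in Fip200 KO (-1.57, adjusted p = 0.0266) and Atg7 KO (-1.14, adjusted p = 0.0179), and in Atg5 KO it stood at -0.89 with adjusted p = 0.0113, under the fold threshold. Both Cd9 calls were lost with all 12 libraries in one fit (adjusted p = 0.139 and 0.110) and with control replicates 2 and 3 left out (-0.77 and -0.86). That setting also ended the Cd81 calls for Fip200 KO (-1.69, adjusted p = 0.886) and Atg7 KO (-1.25, 0.293) and added one for Atg5 KO (-1.01, 0.0831).

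Of the 14 basement membrane partners 11 were tested. Agrn, which binds laminin through its chain arms, was called lower in Fip200 KO (17.1 RPKM beside 51.1 in control, adjusted p = 0.0995 by limma) and stood at -0.39 and -0.04 in Atg5 KO and Atg7 KO. That call was lost with no filter (limma adjusted p = 0.135), with a pseudocount of 0.1 (0.108) and with the prefix term (0.594). Median-of-ratios scaling, the replicate block (0.115) and limma voom (0.113) ended it too. With control replicates 2 and 3 left out the difference was -1.53. The collagen IV chain genes Col4a5 and Col4a6 fell in Atg5 KO and Atg7 KO, and Col4a6 went from 3.48 to 7.97 RPKM in control to 0.111 to 0.153 in Atg5 KO and 0.105 to 0.590 in Atg7 KO. In Atg5 KO it passed the filter only through control, so that it had to differ there, and with no filter the difference of -3.26 was called (limma adjusted p = 0.0054). The Atg5 KO calls of the pair were still made without control replicates 2 and 3 (-1.90 and -2.67, adjusted p = 0.0586 and 0.0363), and the Atg7 KO calls were not (-1.19 and -2.21, 0.345 and 0.267). The Col4a5 call for Atg7 KO was lost with all 12 libraries in one fit too (0.132). No partner was called higher. In the knockouts of Fip200, Atg5 and Atg7, 5, 4 and 3 partners lay wholly below control, beside 12.4%, 22% and 20.4% of all genes tested, and 1, 2 and 1 wholly above it, beside 11.7%, 28.4% and 19.2%. The perlecan gene Hspg2 lay above control in all 3 knockouts, with differences of 0.71, 0.92 and 0.54 (limma adjusted p = 0.286, 0.00963 and 0.0947) under the fold threshold, and Pxdn, whose peroxidase crosslinks collagen IV, in Atg5 KO (0.70, adjusted p = 0.0247). Nid1, which links laminin to collagen IV, stood at -0.92 with Atg5 knocked out and -0.96 with Atg7 knocked out (limma adjusted p of 0.0323 and 0.0654), also under the fold threshold, and at -1.25 with Fip200 knocked out (0.281), where it overlapped with control. The related linker Nid2, Col4a1, Col4a2 and Col18a1 were not called in any knockout.

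Of the 13 other integrin subunits 9 were tested. Itga4, the fibronectin and VCAM-binding subunit, rose in all 3 knockouts, from 1.13 to 2.60 RPKM in control to 6.25 to 14.3 with Fip200 knocked out (limma adjusted p = 0.0671), 3.53 to 4.56 with Atg5 knocked out (0.0229) and 8.89 to 11.9 with Atg7 knocked out (0.00912). None of these calls was left without control replicates 2 and 3, at differences of 1.65, 0.57 and 1.75 (adjusted p = 1, 0.151 and 0.262), and the Fip200 KO call was lost with no filter (0.106). In Atg5 KO a pseudocount of 1 gave 0.998, just under the fold threshold. Itgb5 and Itgb7 were called lower with Atg5 or Atg7 knocked out, but Itgb5 stood at 0.941, 17.3 and 5.77 RPKM and Itgb7 at 0.592, 13.0 and 4.73 in control replicates 1, 2 and 3, the same order as Dcn. Their differences with control replicates 2 and 3 left out were -0.49 to -0.83 and none was called. Itgb7 in both and Itgb5 in Atg7 KO passed the filter only through control, and with no filter the Itgb7 call for Atg7 KO was lost (-2.54, limma adjusted p = 0.114). Itga8 was called lower in Atg7 KO (-1.05, adjusted p = 0.0566) and lost with all 12 libraries in one fit (0.260), with a pseudocount of 1 (-0.86) and without control replicates 2 and 3 (-0.94). With each single library left out in turn, and no other setting changed, the listed-gene calls that held every time were those of Bcam, Col4a5, Col4a6 and Itga4 for Atg5 KO and of Col4a6 and Itga4 for Atg7 KO, and every other call on these lists was lost at least once. Bcam for Atg7 KO, for example, was lost without Atg7 KO replicate 3 or any one control library (limma adjusted p of 0.108 to 0.165), and the Fip200 KO calls of Cd81, Agrn and Itga4 were lost without control replicate 2 or 3. With the prefix term the Atg7 KO calls of Col4a6 and Itga4 were lost as well (limma adjusted p = 0.434 and 0.179). The plot of receptor and basement membrane genes sets the listed genes beside each other.

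**Figure D4:**
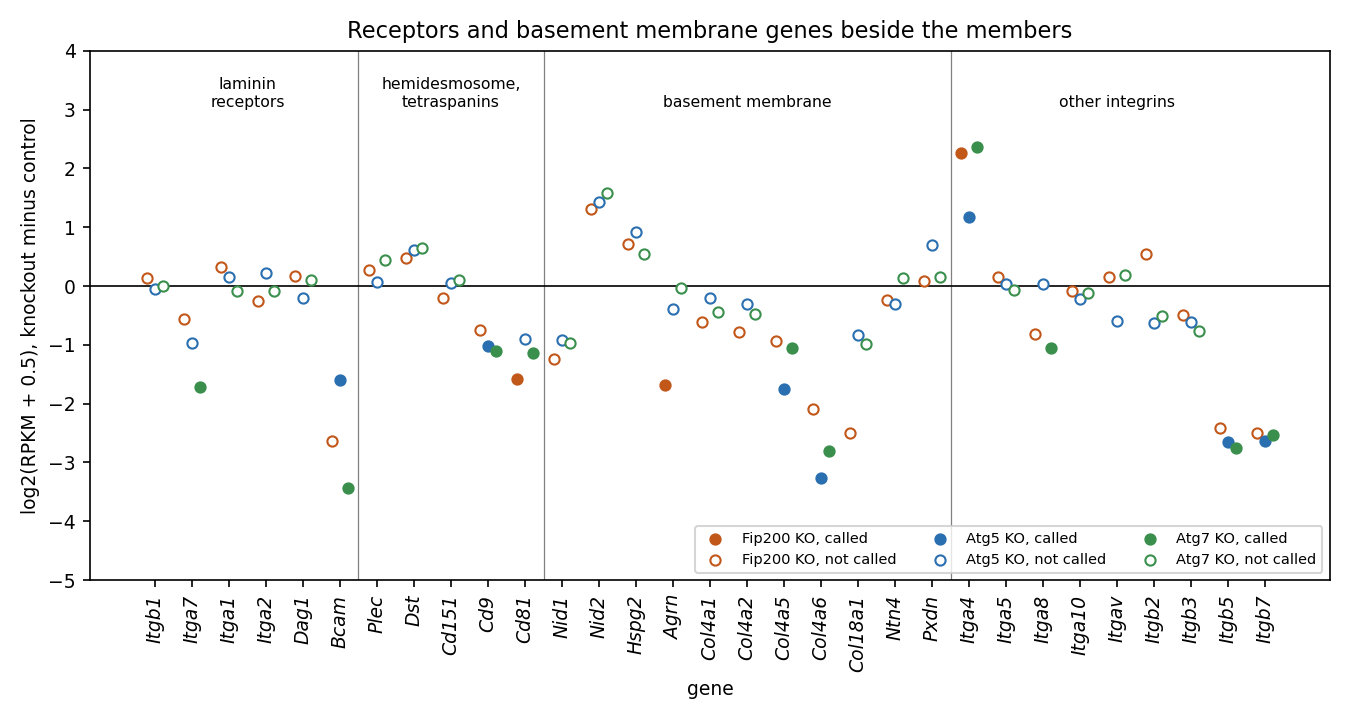
Difference of mean log2(RPKM + 0.5), knockout minus control (y axis), for the tested genes of 4 lists (x axis) in the 3 knockouts. Filled points were called and open points were not. Itga4 stands above 1 in all 3 knockouts and Bcam below -1.5, the latter called in Atg5 KO and Atg7 KO.

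For each of the 9 genes the 3 genes most like it over the 12 libraries were taken by Pearson's r of log2(RPKM + 0.5) among 12233 genes. This is a description with no test, since the 12 points fall into 4 groups and every one of the 12233 genes was searched. Lama4 was most like Rbm7 (r = 0.96), B430319G15Rik and Fam76b, and Lama5 was most like Htr2a (0.93), Bin3 and Ankmy2. Lamb3 was most like Amigo2 (0.98), Pla2g12b and Grtp1, and Itgb4 was most like Dnase2a (0.97), Meis3 and Lifr. Lamb1 was most like Puf60 (0.89), Myl12a and Rer1, Lamb2 like Ndfip1 (0.96), Prrc1 and Rab18, and Lamc1 like Rtl5 (0.96), Heph and Casp4. Itga3 was most like Crlf3 (0.92), Dcun1d2 and Gmps, and Itga6 like Gpr107 (0.91), Dbn1 and Adam10. None of the 9 was among the 3 genes most like another of the 9.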

How the data were processed

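RNA was isolated from 562 vascular tumor cells and made into directional libraries. Per the paper's methods the authors aligned reads with TopHat2, counted those on each known transcript and tested the counts with edgeR. Versions and the genome build are not given in the sources used here. The deposited tables hold 1 RPKM value per library, together with the authors' group means, which are of the unit signal (mean normalized counts), and the authors' fold changes, p-values and calls, which were not used.

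The 3 tables were joined by gene ID (14851 genes, 1 with a blank symbol, which stayed out of named results). Ratios of low RPKM values gave whole reads for 14840 genes, and the authors' means calculated from them matched within 0.1% for 100% of 44377 values. The main test was limma 3.58.1 in R 4.3.3 with trend on log2(RPKM + 0.5), on genes with at least 0.5 RPKM in at least 3 of 6 libraries (of 12 between knockouts), with Benjamini-Hochberg adjustment over all genes tested. A count test with edgeR needs deposited counts and was not run, so limma voom on recovered reads was the alternative. Scripts were tested on simulated data. Exact permutation tests used scipy 1.17.1.

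The 9 genes and all lists were chosen with earlier results of these data known. The text names the 9 genes, the targeted genes, listed genes called in at least 1 comparison, other laminin chains and receptors, and the 3 most similar genes per member. A listed gene is not reported here. Other names (Dcn, Krt8, Krt18, other markers, and listed genes that were not called) were chosen after their values were seen. Alternatives were pseudocounts of 0.1 and 1, no filter, median-of-ratios scaling, all 12 libraries in one fit, a prefix term, a replicate block, voom and leaving out each library (with the genes tested kept the same). Leaving out control replicates 2 and 3 was chosen after seeing the data. Antisense genes could share reads, since the strand setting of the counting is not given in the sources used here.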

Additional observations from a re-analysis of the deposited data

How the results depend on the processing

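The members called in Fip200 KO against control numbered 1, and this moved to 0 with a pseudocount of 1, with the replicate block, with the prefix term and with control replicates 2 and 3 left out, to 2 with no filter or voom, to 3 with all 12 libraries in one fit, and to between 0 and 4 when 1 library was left out. The count for Atg5 KO was 4. It moved to 2 with a pseudocount of 1 and ranged from 3 to 5 with 1 library left out. The count for Atg7 KO was 4. It moved to 0 with the prefix term and to 0 with control replicates 2 and 3 left out, and ranged from 3 to 5 with 1 library left out. No member was called between knockouts under any alternative run, while the prefix term called 1, 2 and 1 genes there. The difference in the Lamb3 share ranged from -1.06 to -0.738, from -1.13 to -0.811 and from -1.07 to -0.753 percentage points in the knockouts of Fip200, Atg5 and Atg7 with 1 library left out. Replicate numbers did not pair the libraries, since correlations of deviations between same-numbered libraries ran from -0.50 to 0.25. The replicate block left 4 members called for Atg5 KO and 4 for Atg7 KO. Signs reversed for genes that were not called in those comparisons. With 1 library left out, in Fip200 KO Lamc1 ranged from -0.283 to 0.111, Itga6 from -0.605 to 0.0558 and Itga8 from -1.48 to 0.0521, in Atg5 KO Itga8 from -0.0590 to 0.134, in Atg7 KO Lamc1 from -0.307 to 0.0042 and Agrn from -0.273 to 0.351, and in Atg5 KO against Fip200 KO Lama5 from -0.826 to 0.0425. With the prefix term Lama5 was at 0.0798 in Atg5 KO against Fip200 KO, Itga7 at 0.693 for Fip200 KO and Itga8 at -0.115 for Atg5 KO, and median-of-ratios scaling put Itga8 at -0.0182 there. With control replicates 2 and 3 left out Itga7 was at 0.693 for Fip200 KO and 0.282 for Atg5 KO, and Agrn at 0.118 in Atg7 KO. The total of genes called in Fip200 KO, 234, moved to between 10 and 607 with 1 library left out, to 608 with all 12 libraries in one fit, to 93 with the replicate block, to 47 with the prefix term, to 146 with no filter and to 0 with control replicates 2 and 3 left out. In Atg5 KO the total of 1331 moved to 663 with the prefix term and to 866 with control replicates 2 and 3 left out, and in Atg7 KO the total of 1191 moved to 38 and 1. Without control replicate 3 the Atg7 KO total was 748. The cause of these changes was not tested, beyond the fewer libraries that an alternative holds. Lamb3 rests on 1 to 80 reads per library, so depth limits its fold changes.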

Other observations

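Integrins pass force from laminin and other ligands to actin through adaptor proteins inside the cell. Of 12 adaptor genes listed, 11 had values and 10 were tested by limma, and 0 were called in any knockout, beside 1.64%, 6.94% and 6.81% of all genes tested called lower and 0.347%, 4.31% and 3.29% called higher in the knockouts of Fip200, Atg5 and Atg7, so that 0 of 10 is near that background. Their median differences on the log2(RPKM + 0.5) scale were 0.13, 0.15 and 0.24, beside 0.02, 0.06 and -0.01 over all genes tested. The talin gene Tln1 stood at 81.1 to 92.1 RPKM in control and 86.8 to 141 in the knockouts. Parva, which joins the integrin-linked kinase to actin, stood at 34.2 to 43.6 RPKM in control, 51.1 to 63.1 in Atg5 KO and 75.5 to 79.5 in Atg7 KO, above control in those groups, and at 30.6 to 62.0 in Fip200 KO, which overlapped with control. Tln2, a second talin gene, stood at 0.391, 2.83 and 0.880 RPKM in control replicates 1, 2 and 3 and at 0.00381 to 0.347 in the knockouts. Vcl, the vinculin gene, stood at a mean of 88.7 RPKM in control and 56.8 in Atg5 KO, where the groups lay apart with a difference of -0.64 (limma adjusted p = 0.00948) under the fold threshold, and at 99.1 and 67.3 with Fip200 or Atg7 knocked out, where it overlapped with control. These genes were picked after their values were seen.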
